A study of Mus musculus with 6 samples.

Results

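The immunoglobulin kappa variable (Igkv) segments are the genes that encode the variable part of the kappa light chain of mouse antibodies. Rows of the deposited expression table were taken as members when their GENCODE symbol began with Igkv and their gene type was IG_V_gene. This gave 100 members among 52550 genes, in 20 families named by the first number of the symbol. RNA was sequenced from hearts of C57BL/6 mice after a myocardial infarction, which was made at 8 weeks of age by permanent ligation of the left anterior descending coronary artery. Hearts were taken 2 weeks later, at 10 weeks of age. Of the 6 mice, 3 were wild type (WT) and 3 carried the genotype lncRNA-DRR-/- (KO), a loss of a long noncoding RNA. Every heart was infarcted, and KO against WT is the comparison made. The labels do not say how the deletion was made, in which cells it acts, or whether the whole heart entered the extraction.

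In a developing B cell, 1 Igkv segment is joined to 1 of the Igkj segments and is then transcribed and spliced to the kappa constant region, Igkc. The choice differs from cell to cell, so the mixture of Igkv transcripts in a tissue reflects which B cells and plasma cells are in it. Plasma cells, which secrete antibody, hold far more of this RNA than resting B cells. In bulk RNA, fewer such cells and less antibody RNA per cell cannot be told apart.

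The members lie on chromosome 6 between positions 67555497 and 70704177 (GRCm38), upstream of Igkc, which starts at 70726435. The nearest member ends 22.3 kb before Igkc. On the strand of Igkc lie 38 members, and 62 lie on the opposite strand. Each member has a leader exon and a V exon, and the V exon ends with a cysteine codon followed by the first bases of the third complementarity-determining region (CDR3), the loop that varies most between antibodies. The last in-frame cysteine codon was found in all 100 V exons, with 18 to 29 bases after it (median 23). The last 60 coding bases of 10 members that the results turn on follow, 5′ to 3′, from GENCODE M21 transcripts, with the cysteine codon and the germline CDR3 bases in capitals.
Igkv3-2 (chr6:70699008-70699067, plus strand): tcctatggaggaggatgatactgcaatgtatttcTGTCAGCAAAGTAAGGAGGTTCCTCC
Igkv3-1 (chr6:70704118-70704177, plus strand): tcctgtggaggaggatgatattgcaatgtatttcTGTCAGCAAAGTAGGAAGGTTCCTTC
Igkv3-12 (chr6:70518790-70518849, plus strand): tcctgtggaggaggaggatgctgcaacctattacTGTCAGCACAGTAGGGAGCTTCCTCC
Igkv9-120 (chr6:68050397-68050456, plus strand): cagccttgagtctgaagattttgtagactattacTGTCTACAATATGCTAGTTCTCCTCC
Igkv10-96 (chr6:68631963-68632022, minus strand): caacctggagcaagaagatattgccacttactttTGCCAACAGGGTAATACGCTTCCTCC
Igkv8-30 (chr6:70117061-70117120, minus strand): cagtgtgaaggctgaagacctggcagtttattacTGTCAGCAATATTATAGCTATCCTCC
Igkv15-103 (chr6:68437866-68437925, plus strand): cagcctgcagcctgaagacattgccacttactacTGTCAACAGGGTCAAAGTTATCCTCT
Igkv19-93 (chr6:68736297-68736356, minus strand): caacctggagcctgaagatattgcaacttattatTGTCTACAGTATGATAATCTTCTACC
Igkv4-68 (chr6:69304834-69304893, minus strand): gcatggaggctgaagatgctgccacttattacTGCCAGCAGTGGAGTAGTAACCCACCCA
Igkv4-59 (chr6:69438218-69438277, minus strand): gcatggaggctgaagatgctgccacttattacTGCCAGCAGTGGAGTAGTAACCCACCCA
Igkv4-68 and Igkv4-59 end in the same 60 bases. In all, 11 members share their last 60 bases with another member. Over the whole V exon, the median identity was 88.1% for the 532 pairs within families and 63.7% for the 4418 pairs between families. For 45 members another member was at least 95% identical, and 25 shared an exact run of at least 100 bases with another. Reads from such stretches cannot be assigned to 1 segment, so values of single segments are uncertain where relatives are this close, and sums over families are less affected.

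Expression was given as FPKM, which scales fragments to the length of a transcript and to the size of the library. The depth was about 5190000 to 9399000 fragments per library, and a member listed above 0 rested on few of them (medians of 5.3 to 46.4 fragments per library, over the 65 members with a single transcript). KO replicate 3 stood apart in sex-linked genes: the X-inactivation RNA Xist was at 25.6 FPKM there and at most 0.0742 FPKM elsewhere, and the Y-linked gene Ddx3y was at 0.0280 against 13.0 to 16.2 FPKM. Heart muscle markers (Myh6, Myl2, Tnnt2 and 5 others) were high in each library, at 6544 to 10570 FPKM in sum. Because all 37 mitochondrial genes were listed at 0, a 0 is given here as listed.

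Kappa segment RNA was lower in KO than in WT hearts on average, but the libraries overlapped. The 100 members summed to 1053, 575 and 337 FPKM in WT replicates 1 to 3 and to 354, 203 and 131 FPKM in KO replicates 1 to 3. KO replicate 1 thus stood above WT replicate 3. The KO mean was 35.1% of the WT mean (229.6 ± 113.9 against 654.6 ± 364.7 FPKM, SD, n = 3 each), a log2 ratio of -1.51. WT replicate 1 carried much of the WT mean, and without it the log2 ratio was -0.99. Without KO replicate 3 it was -1.23. No test was made of a sum over the members.

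Igkc, the constant region that each kappa transcript carries, was also lower on average in KO. It stood at 1724, 954 and 540 FPKM in WT and at 499.7, 374 and 197 FPKM in KO libraries. Here each WT library lay above each KO library, but the difference did not pass the test across all genes (log2 difference -1.52 ± 0.45 SE, limma adjusted p = 0.356). The ratio of the Igkv sum to Igkc was almost the same in the WT libraries, at 0.610, 0.602 and 0.623, and ranged from 0.544 to 0.709 in the KO libraries. Its mean was 0.612 ± 0.010 in WT and 0.640 ± 0.086 in KO (SD, n = 3 each), so the summed segments and the constant region differed by a similar factor between the genotypes.

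**Figure D1:**
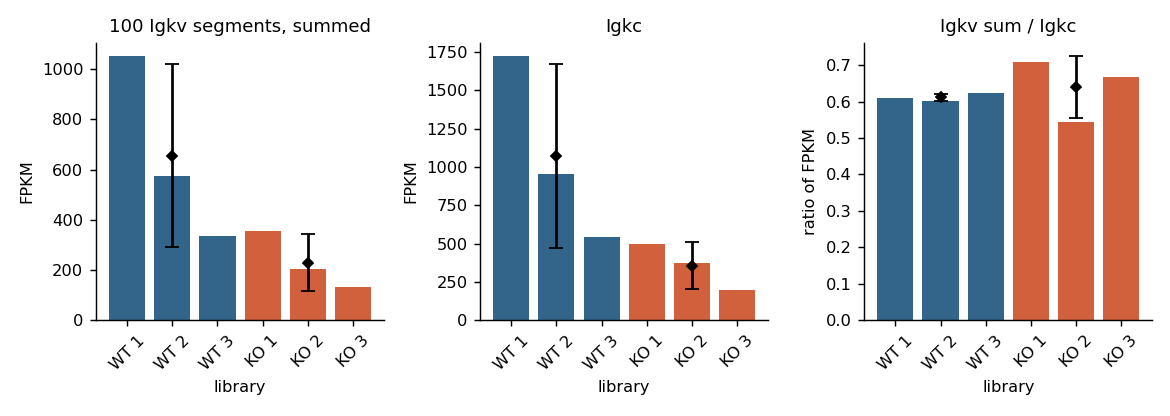
Summed FPKM of the 100 Igkv segments (left), FPKM of Igkc (middle) and their ratio (right) in each library (horizontal axis). Bars are single libraries, and diamonds with error bars are the mean and SD of 3 libraries. The sum runs from 1053 to 131 FPKM while the ratio stays between 0.544 and 0.709.

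Of the 100 members, 11 were listed at 0 in all 6 libraries and 39 were above 0 in all 6. Of the 89 members listed above 0 in any library, 82 had a lower mean in KO (92.1%) and 7 a higher one. Over all 25162 genes listed above 0 the share with a lower mean in KO was 53.2%. The numbers of members listed above 0 were 79, 80 and 70 in WT and 63, 67 and 47 in KO libraries. In WT libraries alone 13 members were listed above 0, and in KO libraries alone 2, Igkv1-133 and Igkv8-16, each in KO replicate 2 only (0.98 and 0.32 FPKM). These were named after their values were seen. How many members are listed above 0 moves with how many Igkv fragments were counted. Over the 65 members with a single transcript, these were about 3052, 1334 and 515 in WT and 764, 485 and 265 in KO libraries. The same counts of listed genes were not made over all genes, so they are not read as a loss of segments.

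The test was limma on log2(FPKM + 0.5), for genes with at least 0.5 FPKM in at least 3 libraries. All log2 differences are KO minus WT on this scale, which understates the change of low genes. Of the 100 members, 71 passed this filter. It can be passed through the 3 WT libraries alone. For 30 of the 71, all 3 WT libraries reached 0.5 FPKM and at least 1 KO library did not. The tested members thus lean towards those that were higher in WT. Of the 71, 69 were lower and 2 higher in KO, against 50.7% lower among all 14656 tested genes. Their median log2 difference was -1.43, and that of all tested genes was -0.004. Without WT replicate 1 the median of the members was -0.94 (60 tested), and without KO replicate 3 it was -1.04 (71 tested). With a filter on the mean of all 6 libraries, 73 of 75 members were lower (median -1.43). That filter can also be passed through WT libraries alone, as by Igkv4-58, which was listed at 0 in all KO libraries. It therefore does not remove the lean towards members higher in WT.

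Only Igkv3-2 passed the test at an adjusted p under 0.05, which is 1 of 71 members, or 1.41%. Over all tested genes the share called was 0.375%, with 0.102% called lower and 0.273% called higher. An unadjusted p under 0.05 was reached by 32 members, all lower in KO (45.1%). Of all tested genes 8.48% reached that level, 4.68% of all being lower. Each WT library lay above each KO library in 23 of the 71 (32.4%, against 7.5% of all tested genes), and the reverse held in 0 (against 5.29%). In 6 of the 23, each WT library reached the minimum of the filter and no KO library did. The filter alone fixed the order of these 6, so they are no evidence for it. They are also among the 32 members with an unadjusted p under 0.05. The members share cells and reads, so the counts of members given here are not independent. Log2 differences of the tested members ranged from -3.17 to 1.12.

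**Figure D2:**
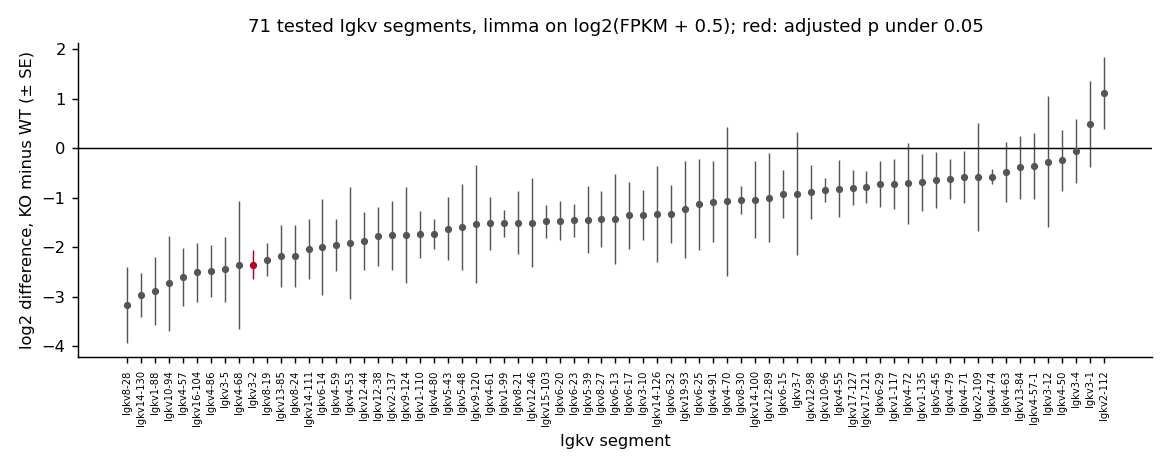
Log2 difference of KO minus WT (vertical axis, ± SE, 3 libraries per group) for the 71 tested Igkv segments (horizontal axis, sorted). Igkv3-2, in red, is the called one, at -2.34. Only Igkv3-1 and Igkv2-112 lie above 0.

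Igkv3-2 stood at 20.3, 14.96 and 17.3 FPKM in WT and at 5.05, 2.26 and 2.26 FPKM in KO libraries. These values rest on about 72, 45 and 33.9 fragments in WT and 13.4, 7.0 and 5.9 in KO libraries. Its WT values were close together even though the Igkv sums of those hearts differed widely. It made up 1.93%, 2.60% and 5.13% of the Igkv sum in WT and 1.42%, 1.11% and 1.72% in KO libraries. Each WT share was above each KO share, narrowly for WT replicate 1 and KO replicate 3. The shares are made from the same values as the call and are no separate support for it. The log2 difference was -2.34 ± 0.30 SE (limma adjusted p = 0.029). The call ended without any single library other than KO replicate 1 (limma adjusted p from 0.083 to 0.114), while the difference stayed between -2.71 and -2.14. It also ended with no filter on low values (limma adjusted p = 0.124).

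Igkv3-1, the neighbour of Igkv3-2 on the side of Igkc and its closest relative, stood at low levels in 5 of the 6 libraries. It stood at 1.47, 1.00 and 1.5 FPKM in WT and at 10.9, 0.301 and 1.22 FPKM in KO libraries. Only KO replicate 1 was high, and the log2 difference was 0.49 ± 0.87 SE (limma adjusted p = 0.926). Whether the differences of both segments differ was not tested. The V exons of both have 310 bases, of which 92.9% are the same. The last 240 bases of each are shown because the values of these close relatives differ. Capitals in Igkv3-1 mark the 18 bases that differ here, of 22 in the whole exon.
Igkv3-2 (chr6:70698828-70699067, plus strand): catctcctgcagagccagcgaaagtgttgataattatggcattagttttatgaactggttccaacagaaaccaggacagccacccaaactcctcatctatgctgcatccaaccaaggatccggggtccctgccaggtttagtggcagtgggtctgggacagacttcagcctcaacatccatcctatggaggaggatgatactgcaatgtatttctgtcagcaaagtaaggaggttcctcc
Igkv3-1 (chr6:70703938-70704177, plus strand): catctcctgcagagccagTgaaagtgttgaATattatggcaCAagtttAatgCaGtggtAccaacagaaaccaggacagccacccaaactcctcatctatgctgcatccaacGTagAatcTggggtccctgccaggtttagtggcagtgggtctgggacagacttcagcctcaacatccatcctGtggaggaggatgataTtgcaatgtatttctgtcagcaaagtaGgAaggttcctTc
The longest exact run that Igkv3-2 shares with any other member is 73 bases, and that of Igkv3-1 is 63.

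Beyond Igkv3-2, the smallest p-values belonged to low segments that were listed at or near 0 in KO hearts. Igkv8-19 stood at 1.99, 2.64 and 4.09 FPKM in WT and was listed at 0.192, 0.479 and 0 in KO libraries. Igkv14-130 stood at 1.96, 7.83 and 2.44 FPKM in WT and was listed at 0 in all KO libraries. Both just missed the threshold (limma adjusted p = 0.051 each). Both were under 0.5 FPKM in each KO library, so they entered the test only through the WT libraries, where they are high, and their p-values support nothing further. Over all alternatives the adjusted p ranged from 0.041 to 0.176 for Igkv8-19 and from 0.021 to 0.183 for Igkv14-130, and both failed the filter without any WT replicate. The fitted log2 difference of Igkv14-130 was -2.97 and became -5.11 with a pseudocount of 0.1, so its size has no fixed value. Igkv4-80 and Igkv1-99 had limma adjusted p of 0.086 and 0.096. The same limit holds for these segments, as neither reached 0.5 FPKM in any KO library. Together with Igkv14-130 and Igkv1-99, Igkv1-88 and Igkv4-54 were above 0 in all WT libraries and at 0 in all KO libraries. Igkv1-88 and Igkv4-54 were named after their values were seen.

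Some of the abundant segments were above 0 in all 6 hearts and higher in each WT library without being called. Igkv10-96, on the strand opposite to Igkc, was the highest or second highest member in 4 libraries and the third in KO replicate 1. It stood at 28.9, 26.1 and 39.99 FPKM in WT and at 20.9, 18.6 and 12.7 FPKM in KO libraries, without overlap. The log2 difference was -0.84 ± 0.24 SE (limma adjusted p = 0.334). As a share of the Igkv sum it was not low in KO, at 2.75%, 4.54% and 11.9% in WT and 5.90%, 9.15% and 9.66% in KO libraries.

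Igkv8-30 stood at 19.3, 26.0 and 17.3 FPKM in WT and at 13.5, 6.90 and 9.50 FPKM in KO libraries (log2 difference -1.04 ± 0.28 SE, limma adjusted p = 0.289). Igkv15-103, the only member of family 15, stood at 16.9, 14.7 and 16.5 FPKM in WT and at 7.36, 7.65 and 2.71 FPKM in KO libraries (-1.47 ± 0.33 SE, limma adjusted p = 0.189). In both, the WT libraries lay above the KO libraries. Neither passed the test. Igkv1-110 (-1.74 ± 0.47 SE), Igkv4-59 (-1.96 ± 0.53 SE) and Igkv12-44 (-1.86 ± 0.58 SE) also did not overlap and were not called (limma adjusted p = 0.293, 0.293 and 0.387).

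Other abundant segments were high in 1 heart only. Igkv9-120 stood at 138.5 FPKM in WT replicate 1, about 459.5 fragments, and at 2.21 to 10.0 FPKM in the other 5 libraries. It alone made up 13.2% of the Igkv sum of that heart, against 0.957% to 4.33% elsewhere. Its log2 difference was -1.53 ± 1.19 SE (limma adjusted p = 0.809). Igkv4-68 likewise stood at 59.8 FPKM in WT replicate 1, at 6.84 and 4.84 FPKM in the other WT libraries and at 13.3, 2.01 and 0 in KO libraries. Igkv6-17 stood at 38.1 FPKM in WT replicate 1 and at 2.50 to 8.99 FPKM elsewhere. WT replicate 1 was the highest library for 51 members, and for 17 tested members it was at least 2-fold above every other library.

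The highest segments of KO hearts differed between libraries. In KO replicate 1 Igkv3-12 stood at 27.4 FPKM and Igkv19-93 at 25.2 FPKM, the highest 2 of that library. Igkv3-12 was at 10.5, 4.15 and 2.12 FPKM in WT and at 0 and 4.54 FPKM in KO replicates 2 and 3. Igkv19-93 was nearly as high in WT replicate 1, at 22.5, 9.27 and 6.44 FPKM in WT, and stood at 2.53 and 1.00 FPKM in KO replicates 2 and 3. Neither difference passed the test (limma adjusted p = 0.978 and 0.817). In KO replicate 3 the highest member was Igkv3-7 (13.9 FPKM), in KO replicate 2 Igkv10-96 (18.6 FPKM) and in WT replicate 2 Igkv4-53 (32.1 FPKM). Igkv3-7 and Igkv4-53 were named after their values were seen.

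The 5 members with the largest log2 difference of KO over WT were Igkv2-112, Igkv3-1, Igkv3-4, Igkv4-50 and Igkv3-12, and 3 of them belong to family 3. Igkv2-112 was listed at 0.721, 0.348 and 0 FPKM in WT and at 2.65, 2.77 and 0 FPKM in KO libraries (log2 difference 1.12 ± 0.73 SE, limma adjusted p = 0.764). Igkv3-4 (-0.06 ± 0.64 SE) and Igkv4-50 (-0.24 ± 0.61 SE) were near 0. None of the 5 was called, and all but Igkv2-112 changed sign when a single library was left out. Among the 29 members that failed the filter, the 3 with the highest mean were Igkv4-58, Igkv4-69 and Igkv12-41. Igkv4-58 was listed at 15.2, 1.80 and 0 FPKM in WT and at 0 in KO libraries, and Igkv4-69 reached 12.8 FPKM in WT replicate 2 and at most 0.981 FPKM elsewhere. Igkv12-41 was listed at 4.89, 5.09 and 0 FPKM in WT and at 0.180, 0 and 0 in KO libraries.

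**Figure D3:**
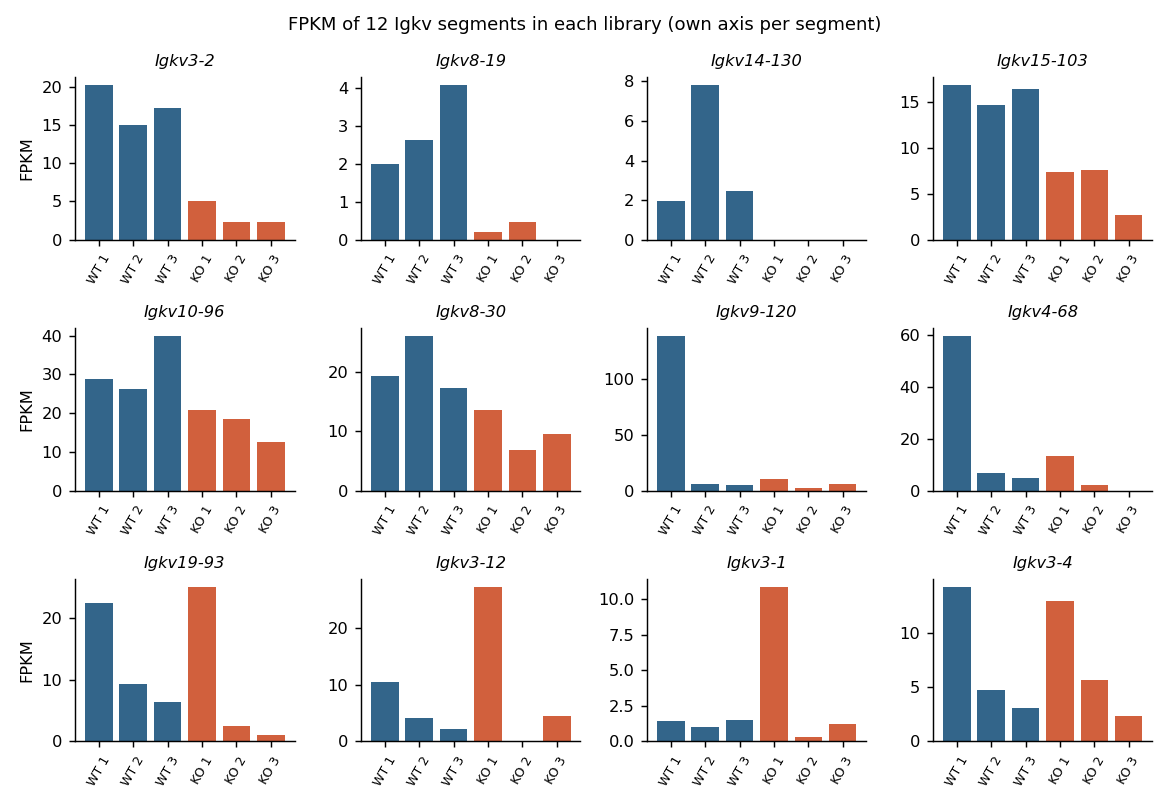
FPKM of 12 Igkv segments in each library, each on its own vertical axis from 0. Blue bars are WT and orange bars KO replicates 1 to 3. In the upper row each WT bar is above each KO bar, whereas Igkv9-120 and Igkv4-68 are high in WT replicate 1 alone and Igkv3-12 and Igkv3-1 in KO replicate 1 alone.

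By family, 17 of the 20 were listed above 0 and 16 of these had a lower mean sum in KO. Families 11, 18 and 20, each with 1 member, were listed at 0 in all libraries. Family 4, the largest with 26 members, summed to 234, 141 and 65.3 FPKM in WT and to 73.3, 34.0 and 28.2 FPKM in KO libraries. All 17 of its tested members were lower in KO and none was called. Family 6 with 9 members (121, 72.6 and 32.8 against 39.3, 27.5 and 14.3 FPKM) and family 1 with 10 members (84.8, 45.2 and 21.3 against 29.3, 14.7 and 13.0 FPKM) showed the same order of libraries. In these 3 families KO replicate 1 lay above WT replicate 3.

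The sums of 5 families did not overlap, with WT above KO in each, and those of the other 12 overlapped. Of all tested genes, as single genes rather than sums, 7.5% stood in that order without overlap and 5.29% in the reverse. Family 8 summed to 67.9, 73.6 and 30.8 FPKM in WT and to 22.6, 12.6 and 13.9 FPKM in KO libraries, and family 10 to 62.0, 38.3 and 43.4 against 25.4, 20.5 and 12.7 FPKM. Family 12 (46.3, 19.2 and 20.4 against 9.79, 14.0 and 1.52 FPKM) also stood apart, as did the single members of families 15 and 16. Family 16 is Igkv16-104, which stood at 25.5, 4.78 and 3.81 FPKM in WT and at 1.12, 1.30 and 0.578 FPKM in KO libraries (log2 difference -2.51 ± 0.60 SE, limma adjusted p = 0.220). Its share of the Igkv sum was the only family share without overlap (0.831% to 2.42% in WT, 0.318% to 0.637% in KO). As 1 of 17 family shares, it is near the 7.5% of all tested genes and is not read as a result.

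Family 3, which holds both Igkv3-2 and Igkv3-1, had the smallest difference of the 5 families with 9 or more members. It summed to 83.1, 41.2 and 40.02 FPKM in WT and to 70.95, 11.6 and 25.1 FPKM in KO libraries, so that the KO mean was 65.5% of the WT mean, against 30.7% for family 4. Its share of the Igkv sum was 7.89%, 7.18% and 11.9% in WT and 20.02%, 5.71% and 19.1% in KO libraries. KO replicates 1 and 3 were thus above the WT libraries and KO replicate 2 below them. The difference between families was not tested. In family 9 the KO mean was 15.4% of the WT mean, but this rests on Igkv9-120 in WT replicate 1: the log2 ratio went from -2.70 to -0.27 without that library. Families 14 (KO mean 21.04% of WT), 5 (33.9%), 17 (53.3%), 13 (51.0%), 2 (56.9%) and 19 (75.1%) overlapped. Family 7 is Igkv7-33, which was listed above 0 only in WT replicate 2 (0.670 FPKM) and KO replicate 3 (0.726 FPKM).

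The highest members of the remaining families were not called. They were Igkv2-137 (log2 difference -1.76 ± 0.70 SE), Igkv5-39 (-1.44 ± 0.67 SE), Igkv13-84 (-0.38 ± 0.63 SE), Igkv14-126 (-1.33 ± 0.97 SE) and Igkv17-127 (-0.80 ± 0.36 SE), with limma adjusted p from 0.541 to 0.918. Igkv4-55, among the 10 highest members, stood at 24.3, 6.08 and 16.4 FPKM in WT and at 13.1, 3.68 and 8.05 FPKM in KO libraries, with overlap.

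**Figure D4:**
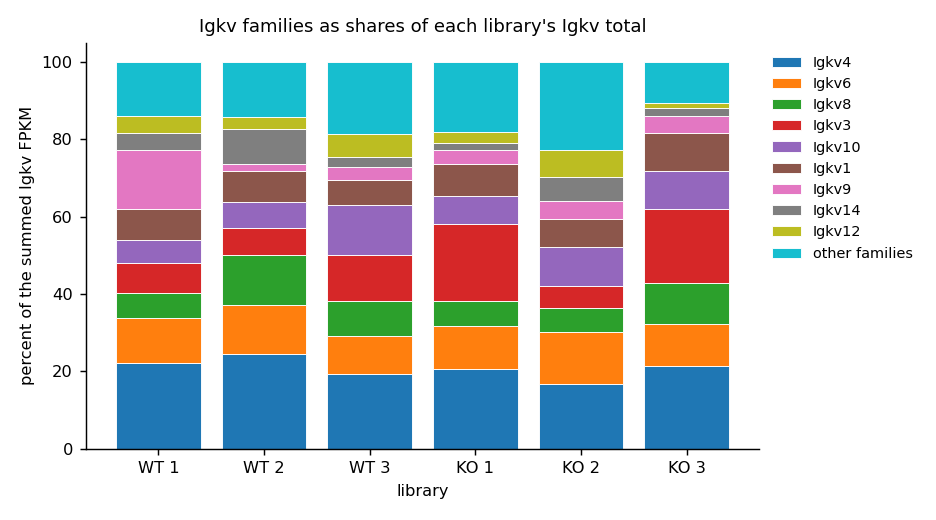
Share of each Igkv family in the summed Igkv FPKM of a library (vertical axis, percent) for the 3 WT and 3 KO libraries. The 9 families with the highest mean share in WT are drawn singly. Family 4 takes 16.7% to 24.6% in each library, and family 3 takes 20.02% and 19.1% in KO replicates 1 and 3.

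Shares of the Igkv sum by position in the locus overlapped between the genotypes. Members under 1 Mb from Igkc gave 33.3% to 41.7% of the Igkv sum in WT and 40.5% to 44.6% in KO libraries. Those over 2 Mb away gave 31.04% to 40.01% in WT and 27.3% to 39.7% in KO libraries. Members on the strand of Igkc, which join by deletion of the DNA between, gave 34.2% to 45.7% in WT and 39.9% to 46.3% in KO libraries. Those on the opposite strand, which join by inversion, gave the rest. In FPKM, the sum of members over 2 Mb away and that of members on the opposite strand were higher in each WT library than in each KO library (113.6 to 421.1 against 42.0 to 96.6 FPKM, and 221.3 to 571.9 against 72.4 to 190.4 FPKM). Igkv9-120 is among the former. The sums of members under 1 Mb away, of those from 1 to 2 Mb away and of those on the strand of Igkc overlapped. In each, WT replicate 3 lay below KO replicate 1 (140.2 against 148.0, 82.7 against 109.7 and 115.2 against 163.9 FPKM). Of all tested genes, as single genes rather than sums, 7.5% had each WT library above each KO library. No difference by position or strand is read from these sums.

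**Figure D5:**
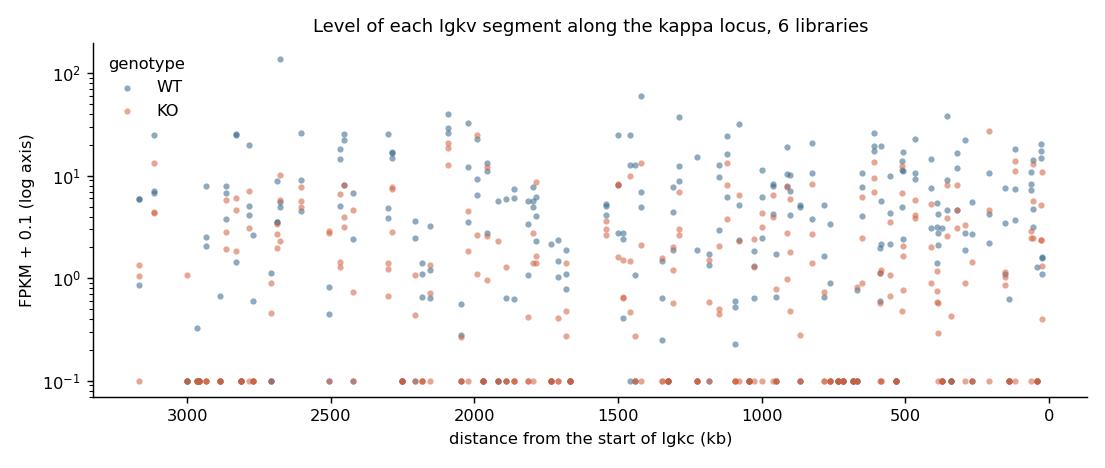
FPKM plus 0.1 of each of the 100 Igkv segments (vertical log axis) against its distance from the start of Igkc in kb (horizontal axis), with 1 point per segment and library. Points at the bottom are values listed at 0. WT and KO points occur along the whole 3149 kb.

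How evenly the segments were used was given by the effective number, the count of equally abundant segments with the same Shannon entropy. It was 45.2, 53.6 and 43.4 in WT and 40.5, 42.3 and 29.7 in KO libraries. Each WT library was above each KO library, narrowly for WT replicate 3 and KO replicate 2. The 5 highest members took 23.1% to 31.9% of the sum in WT and 26.9% to 39.7% in KO libraries. The effective number moves with how many fragments were counted: a listed member rested on a median of 46.4, 21.4 and 6.8 fragments in WT and 11.6, 7.0 and 5.3 in KO libraries. Its part in the result was not tested. Spearman's rho across the 100 members had a median of 0.692 within genotypes (6 pairs, 0.521 to 0.766) and 0.693 between them (9 pairs, 0.555 to 0.792), as a description of members that share libraries.

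The sums of the other antibody variable segments were also lower on average in KO hearts. The 113 heavy chain variable segments summed to 1223, 577 and 315 FPKM in WT and to 316, 255 and 134 FPKM in KO libraries. The 3 lambda variable segments summed to 179, 34.5 and 20.4 against 20.96, 9.22 and 3.67 FPKM. Kappa made up 85.5%, 94.3% and 94.3% of the light chain variable sum in WT and 94.4%, 95.7% and 97.3% in KO libraries. The kappa share was higher in each KO library, but WT replicate 2 and KO replicate 1 almost met. Iglv1, the main lambda segment, stood at 158 FPKM in WT replicate 1 and at 2.61 to 24.0 FPKM elsewhere (log2 difference -2.42 ± 0.86 SE, limma adjusted p = 0.473). The lambda constant genes Iglc1 and Iglc2 were not called either (limma adjusted p = 0.345 and 0.571). Of 8 heavy chain constant genes 6 were tested, with 5 lower, 1 higher and none called. The higher one was Ighd (log2 difference 0.11 ± 0.19 SE).

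Genes of plasma cells and of mature B cells were lower in most cases, and none was called. Jchain, which joins secreted antibodies into polymers, stood at 74.5, 29.9 and 20.2 FPKM in WT and at 16.1, 12.7 and 8.38 FPKM in KO libraries (log2 difference -1.52 ± 0.43 SE, limma adjusted p = 0.312). The Igkv sum was 14.1 to 19.2 times Jchain in WT and 15.7 to 22.0 times in KO libraries. Of 10 tested plasma cell genes 9 were lower (median log2 difference -0.72). Among them Xbp1, a transcription factor of secretory cells, differed by -0.83 ± 0.34 SE and Txndc5, a protein-folding enzyme, by -0.25 ± 0.39 SE. Of 14 mature B cell genes 5 were tested, and all 5 were lower (median -0.15). Cd79a, a part of the B cell receptor, stood at 3.46, 0.942 and 0.859 FPKM in WT and at 1.90, 1.20 and 0.395 FPKM in KO libraries. Cd79b and Cd37 differed by -0.15 ± 0.41 SE and -0.07 ± 0.18 SE. The difference between both lists was not tested.

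Of 8 factors that act on kappa promoters and enhancers 6 were lower and none was called (median -0.44). Irf4 and Pou2af1, both lower, are also counted among the plasma cell genes above. Rag1, Rag2 and Dntt, which act in the joining of segments in developing lymphocytes, were listed at 0 in all 6 libraries, as was Igll1. Igkj5 and Igkj3, short joining segments, stood at low levels in both genotypes and were not called (limma adjusted p = 0.993 and 0.962). Their log2 differences were 0.03 ± 0.37 SE and -0.22 ± 0.67 SE. Of 11 genes for survival and homing of B cells 7 were tested, with 5 lower and none called.

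Marker lists of other cells were lower in part as well. The 10 T cell genes summed to 6.73 to 12.9 FPKM in WT and 3.15 to 4.56 FPKM in KO libraries, all 5 tested members being lower and none called. The 7 blood genes were all lower and not called (median -0.56), with sums of 6336 to 11090 FPKM in WT and 4437 to 7306 FPKM in KO libraries. Among these, Hba-a1, Hba-a2 and Hbb-bs, which encode haemoglobin chains, had limma adjusted p from 0.648 to 0.728. The part of blood and of T cells in the Igkv result was not tested. Macrophage genes overlapped between genotypes (471 to 886 against 437 to 615 FPKM), with 6 of 7 lower. So did lymph node stroma genes (37.9 to 69.5 against 37.0 to 63.2 FPKM) and fat genes (1.08 to 50.6 against 12.1 to 13.2 FPKM). Thymus genes summed to at most 0.124 FPKM. Of the 7 fibroblast genes 6 were higher in KO and none was called (median 0.28). The 60 Igkv pseudogene rows held 4 listed above 0, all in WT replicate 1 only, at no more than 1.18 FPKM. The others were listed at 0 in all libraries.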

How the data were processed

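Heart RNA of 6 mice (3 WT, 3 KO, grouped by title) was made into TruSeq libraries, per the labels. The authors deposited FPKM in a table that its title calls counts. Bowtie 0.12.2 and the builds mm8 and mm9 appear, with no role, in the submitters' processing notes. How FPKM were computed, from which annotation, with or without strand, and with what treatment of reads shared between segments, is not stated in the labels or headers. All 100 members matched GENCODE M21 (GRCm38) by identifier and version, and no coordinate was converted.

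Depth was estimated by taking the commonest value of FPKM times length, among single-transcript genes, as 1 fragment. Whole counts were not recovered, since only 28.6% to 29.7% of values under 5 fragments were whole within 0.02, so no interval on counts is given. Genes with at least 0.5 FPKM in at least 3 libraries (14656) were scaled by trimmed means of log2 ratios (trims 0.3 and 0.05), logged with a pseudocount of 0.5 and fitted with limma 3.58.1 in R 4.3.3 (genotype only, two-sided, mean-variance trend, Benjamini-Hochberg over all tested genes). The fit was also run on simulated data with known changes. Their noise was independent between genes and set by expression level. They do not show how the fit handles members that share cells and reads. Sums, ratios and shares use FPKM as deposited and have no test. Identity is from global alignment of V exons (Biopython 1.88).

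The labels tie no sample to a litter or session, so p-values reflect only how far these samples differ. The labels do not say whether replicate numbers pair the samples, and the numbers were not used as pairs in the main fit. The members and gene lists were chosen with earlier results of these data known. Segments named are those called, the 10 highest, the 5 of smallest p, the 5 with the largest difference of KO over WT, the highest of each family and the 3 highest not tested. Promoter sequences were not used here. Alternatives were other scalings, filters, pseudocounts, a robust fit, a replicate block and leaving out each library.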

Additional observations from a re-analysis of the deposited data

How the results depend on the processing

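The lower level of the Igkv segments kept its direction under each alternative run, and the calls did not. The log2 ratio of the summed FPKM lay between -1.97 and -0.99 with 1 library left out and between -1.51 and -1.44 with other scalings, with the pseudogenes or without the highest member. The scaling of sums by trimmed means was chosen after seeing the data. The count of called members (1) was 2 with upper-quartile scaling or a pseudocount of 0.1, 3 with no scaling, a minimum of 1 FPKM or a robust fit, 0 with no filter, and 0 to 1 with a library left out. The 1 was Igkv3-2 without KO replicate 1 and another segment, Igkv3-5, without KO replicate 3. All genes called (55) became 20 with no filter and 12 to 36 with a library left out. With the replicate number as a block, 3 members were called (Igkv3-2, Igkv4-59 and Igkv10-94) and 42 genes in all. Deviations of same-numbered WT and KO libraries correlated at 0.008, -0.036 and 0.180, and those of differently numbered ones at -0.202 to 0.193. With 3 libraries per group this cannot settle whether the numbers are pairs, and they are not read as such.

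The log2 ratio of the Igkv to Igkc quotient (0.0648) ranged from -0.0152 to 0.169 with a library left out, so it has no stable sign. Log2 differences that changed sign in the same way were those of Igkv13-84 (-1.16 to 0.0718), Igkv4-50 (-0.815 to 0.462), Igkv3-12 (-1.67 to 1.27), Igkv3-4 (-0.65 to 0.488) and Igkv3-1 (-0.626 to 1.34). So did the sums of family 19 (log2 ratio -2.85 to 0.284) and family 7 (difference of means -0.223 to 0.242 FPKM). The effective number of segments was lower in KO by 5.95 to 12.2. The cause of these changes was not tested. Depth limits single segments most: with few fragments a value near 0 cannot be told from no expression.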
